A study of Gallus gallus with 16 samples.

Results

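HPD, UROC1, CYP4V2, DPYS and ABCC3 encode 4 enzymes and 1 transporter that are grouped here as liver-type genes, although no liver was measured. Counts of these genes in abdominal fat of high-growth (HG) and low-growth (LG) chickens are described here. They are 5 of the 17854 loci in the table of counts, found by their Ensembl identifiers. The symbols were read from the study's list of genes differing between HG and LG birds. That list was made from the same birds, so which line has the higher count was part of how the genes were chosen. The HG/LG values of the 5 are therefore a description and carry no test.

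The birds were HG and LG cockerels of Bresse-Pile (meat-type) chickens, lines divergently selected from 1 random-bred population for high or low body weight at a juvenile and an adult age. The lines also differ in abdominal fatness. Per the paper they were kept apart in their first weeks, when LG chicks were given crushed pellets. Line, body size, fat mass and this early rearing therefore cannot be told apart. Birds of both lines were vaccinated against Marek's disease at hatching, and no experimental treatment is named. Abdominal fat of 4 fed cockerels per line was collected at 7 wk, and each library, 1 per bird, was run on 2 lanes. The line was taken from the sample titles, because another label gives HG for every sample. The analysed table holds 1 estimated count per gene and line over the 4 birds, and a variance from a model, so single birds could not be shown and the spread between birds was not seen directly. All loci together summed to 4421254 counts in HG and 3365950 in LG. The paper reports many more mapped reads than this for every single bird, so these sums do not give the depth of sequencing. Low counts below are low on the scale of these estimates. The tissue is whole fat, in which fewer cells of a type and less RNA per cell cannot be told apart.

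In mammals, the liver, and for several of these genes the kidney, breaks down amino acids and pyrimidines that are not needed, hydroxylates fatty acids at their far end and sends conjugated compounds back to the blood. HPD, 4-hydroxyphenylpyruvate dioxygenase, forms homogentisate on the way from tyrosine to fumarate and acetoacetate. UROC1, urocanate hydratase, acts in histidine breakdown after histidase has removed ammonia. DPYS, dihydropyrimidinase, opens the ring of dihydrouracil and dihydrothymine after DPYD has reduced uracil and thymine. CYP4V2 is a microsomal cytochrome P450 that hydroxylates medium-chain fatty acids at the omega position. ABCC3, also called MRP3, is an ATP-driven pump in the basolateral membrane of liver and gut cells that exports glucuronide conjugates and bile salts.

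Counts were higher in LG for 4 of the 5 genes, and HPD alone had the higher count in HG. Over all 10484 loci tested, 24.7% had the higher count in LG, or 50% once each ratio was taken relative to the median ratio. The same 4 genes were on the LG side of the median gene after centring, and also with counts scaled to equal column totals. Loci were tested when both counts were above 0, the higher one reached 10 and the software marked the locus OK. A log2 HG/LG ratio was computed with 1 added to each count, and its 95% interval was taken from the deposited variances. The median log2 ratio of the loci tested was 0.26 and not 0, so the ratios of the 5 genes are also given relative to that median gene.

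**Figure D1:**
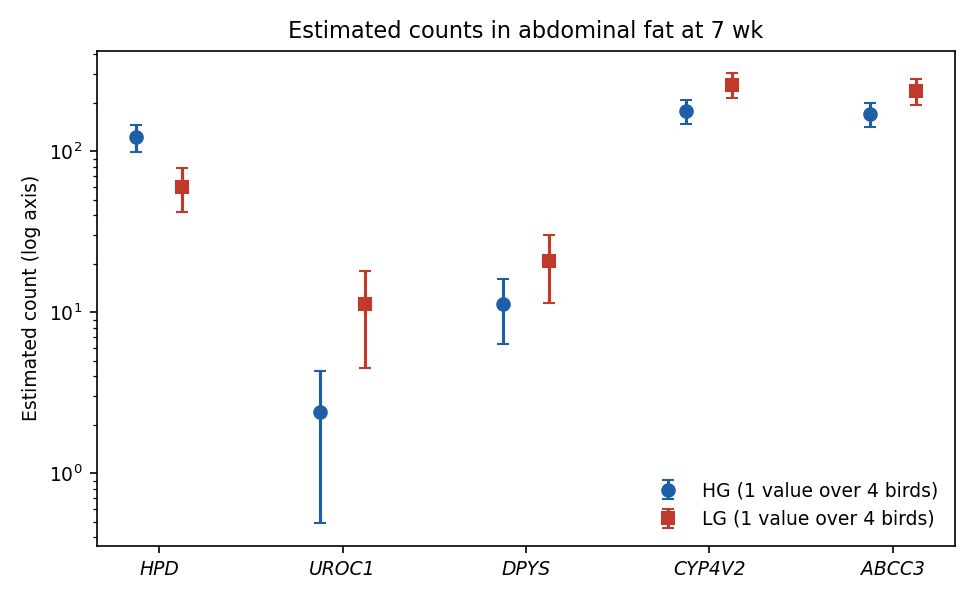
Estimated counts of the 5 genes in HG (blue circles) and LG (red squares) on a log axis. Each point is 1 value over 4 birds and the bars are ± 1 SD of the deposited model variance. The bars of the lines do not overlap for HPD, UROC1 and CYP4V2, and they overlap for DPYS and ABCC3. Overlap was not counted over all loci, so it is a description only.

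HPD (ENSGALG00000004343) had an estimated count of 122 ± 23.6 (model SD) in HG and 59.9 ± 18.2 in LG. The HG estimate was thus above the LG estimate, and the ranges of 1 SD around them did not overlap. How often such ranges stay apart over all loci tested was not counted, so nothing is read from this here or for the genes below. With 1 added to each count, this gave a fold of 2.03, or a log2 ratio of 1.02 (95% interval 0.02 to 2.02), and 5.53% of the loci tested had a higher ratio. Relative to the median gene the ratio was 0.76 (95% interval -0.24 to 1.77), so the interval included no difference once the counts were centred. On this scale and at these counts, a fold under 2.00 would have left the deposited interval spanning 0.

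UROC1 (ENSGALG00000006306) was close to the limit of what was counted, with 2.40 ± 1.91 in HG and 11.2 ± 6.71 in LG. The LG estimate was the higher one, and the ranges of 1 SD narrowly missed each other, ending at 4.3 in HG and starting at 4.46 in LG. Its log2 ratio was -1.84 (95% interval -4.06 to 0.38), which is 3.58-fold more in LG on the scale of count + 1, and it was -2.10 (95% interval -4.32 to 0.13) relative to the median gene. The ratio as deposited moved to -2.22 with no pseudocount and to -0.77 with a pseudocount of 10. Rounded to whole numbers, the counts were 2 and 11. Treated as if they were reads, these 13 counts gave an LG/HG ratio of 5.50, with exact binomial (Clopper-Pearson) limits of 1.2 and 51.1. The estimates need not be on the scale of reads, so these limits may not even cover counting error. UROC1 was also chosen from this contrast and reached the minimum count through LG alone. The limits are therefore no evidence of a difference, and the model interval above includes none. On the count + 1 scale, a fold of 4.67 would have been needed for the model interval to exclude 0, so the size of the UROC1 difference is poorly fixed.

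DPYS (ENSGALG00000016076) had 11.2 ± 4.88 in HG and 20.8 ± 9.47 in LG. LG was the higher line, with overlapping ranges of 1 SD. The log2 ratio was -0.84 (95% interval -2.51 to 0.83), or -1.09 (95% interval -2.77 to 0.58) relative to the median gene. The smallest fold outside the interval as deposited was 3.19. Counts of UROC1 and DPYS were thus low enough that 2-fold differences could not be detected with the deposited variances. Both genes are described only as uncharacterized proteins in the study's list, which nevertheless gives them these symbols.

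CYP4V2 (ENSGALG00000013535) had 178 ± 29.3 in HG and 259 ± 46.1 in LG, without overlap of the ranges of 1 SD. Its log2 ratio of -0.54 (95% interval -1.22 to 0.14) corresponds to 1.45-fold more in LG. Relative to the median gene it was -0.80 (95% interval -1.48 to -0.11), an interval that lies on the LG side.

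ABCC3 (ENSGALG00000007522) was much like CYP4V2, with 170 ± 28.5 in HG and 237 ± 42.3 in LG and overlapping ranges of 1 SD. The log2 ratio was -0.48 (95% interval -1.17 to 0.21), and relative to the median gene it was -0.74 (95% interval -1.42 to -0.05). The smallest folds outside the deposited interval were 1.61 for CYP4V2 and 1.61 for ABCC3, the narrowest of the 5. For both genes the scaling between the lines decided whether the interval reached 0.

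**Figure D2:**
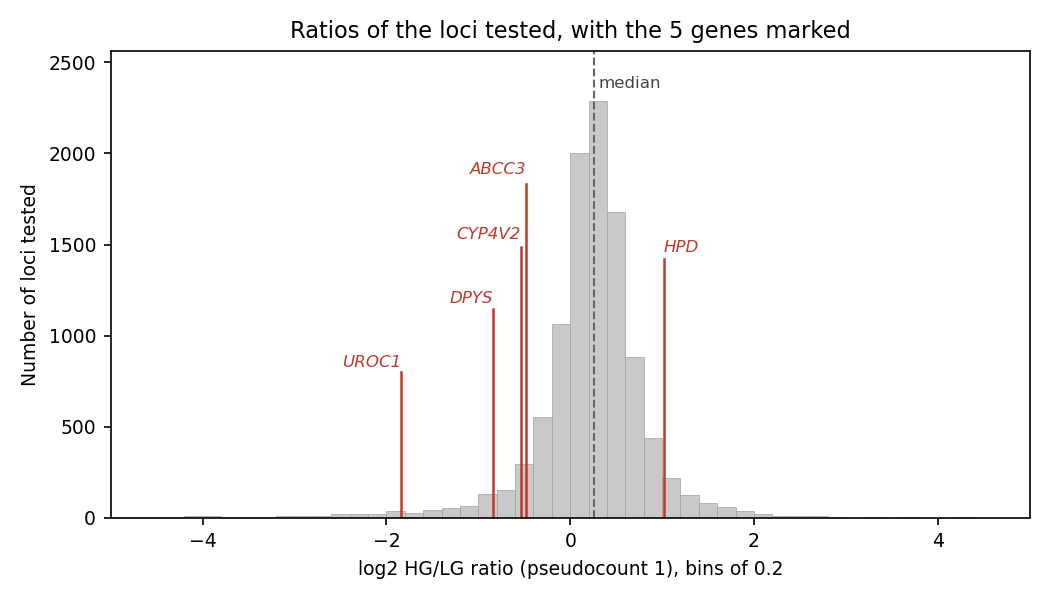
Number of loci tested by log2 HG/LG ratio (grey bars, bins of 0.2), with the ratios of the 5 genes as red lines whose height has no meaning and the median of 0.26 as a dashed line. HPD lies at 1.02, in the right flank, and the other 4 lie from -1.84 to -0.48, in the left flank; 32 loci beyond a ratio of 5 in either direction are not drawn.

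None of the 5 genes was called in the normal test on the deposited variances, where a call needed a fold of 1.2 or more and an adjusted p (Benjamini-Hochberg) no larger than 0.05. The study had listed all 5 as differing by Cuffdiff, with the same limits on fold and adjusted p. With the variances as deposited, the normal test called 307 loci, fewer than the 1998 rows read of the study's list. A gene not called here has thus not failed the study's own test. Among all loci tested, 2.93% were called, with 2.07% higher in HG against 0.858% in LG. At an unadjusted p under 0.05, HPD was the 1 gene of the 5 that passed, against 11.1% of all loci. After centring, CYP4V2 and ABCC3 were the 2 that passed unadjusted, against 7.51% of all loci, and none was called, against 2.18%. Dividing the deposited variance by 4, as would apply to a mean over the birds, brought calls for HPD as higher in HG and for UROC1, CYP4V2 and ABCC3 as higher in LG, but not for DPYS. In that setting 27.1% of all loci were called, 22.2% in HG and 4.87% in LG, and all 5 genes passed unadjusted with 37.1% of all loci. The sources used here do not state whether the variance is that of 1 library or of a mean. The intervals and smallest folds given above rest on the undivided variance, and would be narrower with a divided one. Since the genes were chosen from this contrast, nothing is read from these counts of calls.

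The deposited variance has a part from the spread between replicates, called dispersion, and a part from uncertain assignment of reads to isoforms. For each of the 5 genes in each line, the isoform part was 0 and the dispersion part was 100% of the variance. This was so for 63.4% of the loci counted in HG and for 63.4% in LG. In such loci with counts of at least 10, the square root of the dispersion part as a percent of the count (relative dispersion SD) was almost fixed by the count. It lay within 5% of the running median of 21 loci of like count for 98.5% of them in HG and 97.1% in LG. A relative dispersion SD on that curve is thus a property of the count and tells nothing about the birds of 1 gene, and only a value above the curve could.

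Departures from the curve were small in HG. Relative to the median of the 20 nearest such loci, their relative dispersion SD was 1.00 times for HPD, 1.04 for UROC1, 0.99 for DPYS, 0.998 for CYP4V2 and 0.999 for ABCC3. HPD was above all 20 of its neighbours, which ranged from 19.2% to 19.3% beside its 19.3%. UROC1 was above 17 of its 20, which ranged from 72.4% to 91.0%. Its HG count of 2.40 lies below the counts of at least 10 for which the curve was shown to be tight. In LG the multiples ran from 1.00 to 1.25. HPD had a relative dispersion SD of 30.4% where the median of its 20 neighbours was 27.9%, or 1.09 times as much. DPYS had 45.6% against 39.6%, which is 1.15 times. UROC1 had 60.1% against 48.0%, which is 1.25 times, and exceeded all 20 neighbours, which ranged from 47.3% to 49.9%. CYP4V2 was at 1.03 times, above 19 of its 20 neighbours, and ABCC3 was at 1.00 times, above 13 of 20.

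**Figure D3:**
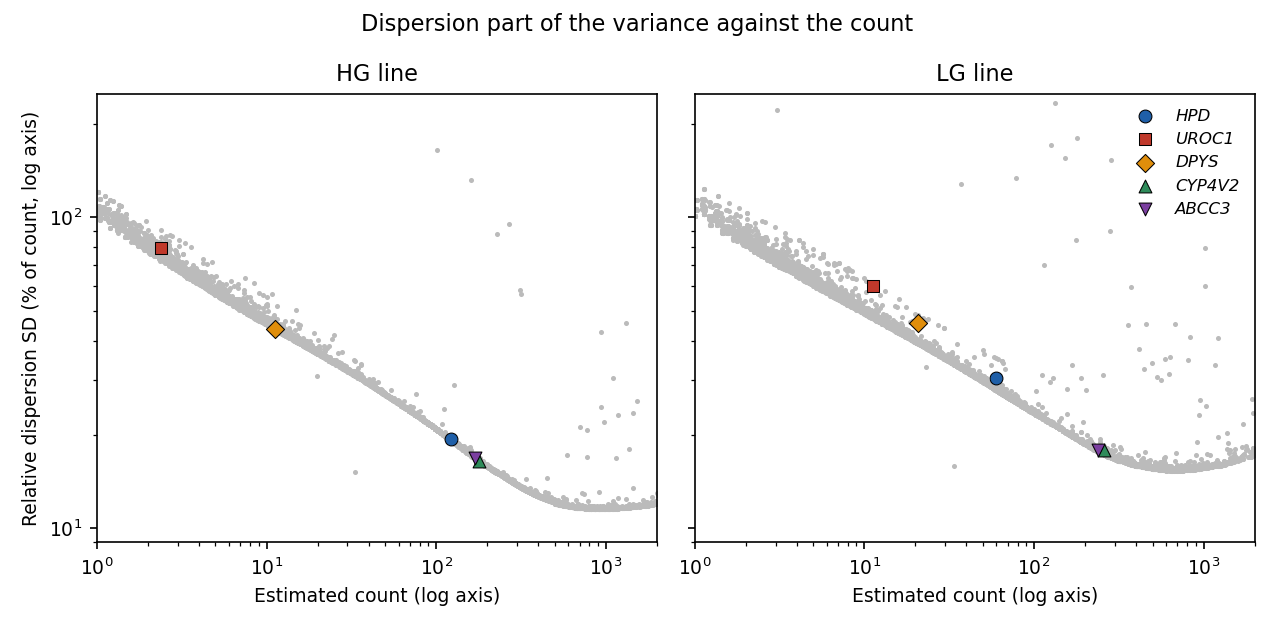
Relative dispersion SD in percent of the count against the estimated count, both on log axes, in HG (left) and LG (right). Grey points are loci whose variance is all dispersion (those beyond the axes are not drawn) and coloured symbols are the 5 genes. In HG the 5 symbols sit on the grey band, which is wider at the low count of UROC1. In LG the symbols of UROC1, DPYS and HPD sit above the dense band, at 1.25, 1.15 and 1.09 times the local median.

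Values at least 5% above the running median were found in 2.72% of the tested loci of this kind in LG and 1.43% in HG. They were unevenly spread in both lines. In LG, 34.5% of the 238 loci with a log2 ratio of -1 or below had one, as UROC1 did. The share was 1.35% of the 5798 loci with ratios between -1 and 1, where DPYS stands, and 4.24% of the 283 with ratios of 1 or above, where HPD stands. In HG the shares were 21.6% of 111 loci, 0.774% of 5814 and 5.57% of 377 in the same order. At this limit the pattern was thus not particular to LG. Values over 1.2 times the running median differed more between the lines. With ratios of -1 or below they were found in 16.0% of the loci in LG and 0.0% in HG. The shares were 0.397% in LG and 0.31% in HG for ratios between -1 and 1. For ratios of 1 or above they were 2.47% and 2.12%. Among the 5 genes in LG, the departures were larger for the 3 with the lower counts, UROC1, DPYS and HPD, than for CYP4V2 and ABCC3. How far single LG birds differed in these genes was not tested, since no bird is shown apart.

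The other steps of the same pathways could be followed only where the study's list gives a symbol. The copy read here holds 1998 rows and stops 414 rows short of the list's end. It gave 1993 identifiers, of which 1511 were found in the table and 1420 also carried a symbol. Its rows run from genes higher in HG to genes higher in LG. By the counts analysed here, 98 of the first 100 listed loci that were tested lay on the HG side of the median gene and all of the last 100 on the LG side, with median log2 ratios of 1.96 and -1.06. The rows not read follow these, so genes with the largest excess in LG are the ones least covered, and the number of matched genes on either side cannot be read as the balance of a pathway. Each related gene named below had therefore been picked by the study from these birds too. Its direction is no independent evidence, and its call is given beside the 2.93% of all loci. Genes without an identifier from the rows read could not be looked up among the counts and were not analysed here. Some other genes had an identifier there but no row among the counts. In what follows, "matched" means having both an identifier from those rows and a row among the counts.

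Among 13 genes of phenylalanine and tyrosine breakdown, HPD was the 1 matched, the other 12 not being looked up, and among 7 of histidine use UROC1 was joined by HNMT, which inactivates histamine by methylation. HNMT had 140 ± 25.4 in HG and 68.0 ± 18.2 in LG, with a log2 ratio of 1.03 (95% interval 0.12 to 1.93), opposite in sign to UROC1 and close to HPD. Its LG dispersion was on the curve, at 1.00 times. Of 30 other enzymes of amino acid breakdown in liver, 3 were matched, with a median log2 ratio of 0.75. GLDC, the decarboxylase of the glycine cleavage system, had 149 and 58.0 (log2 ratio 1.34, 95% interval 0.10 to 2.59). DMGDH, which demethylates dimethylglycine, had 174 and 103 (log2 ratio 0.75), and MCCC2, a subunit of the carboxylase for leucine breakdown, had 235 and 144 (log2 ratio 0.70). All 3 and HPD had the higher count in HG before and after centring, UROC1 the lower, and none of these genes was called.

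DPYS was the 1 gene matched of 11 genes of pyrimidine breakdown. Its family also holds proteins of the neuronal cytoskeleton that lack the enzyme's activity, and 3 of the 6 listed members were matched. DPYSL2 (listed as CRMP2A) had 1457 ± 191 in HG and 823 ± 152 in LG, and its log2 ratio was 0.82 (95% interval 0.18 to 1.46). DPYSL3 had 930.0 ± 107 and 486 ± 80.1, with a log2 ratio of 0.93 (95% interval 0.37 to 1.5). It was called in HG as deposited and was not called after centring. DPYS and its relatives thus stood on opposite sides, with an interval for DPYS that overlaps both of theirs.

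CYP4V2 needs electrons from POR, the cytochrome P450 reductase, and CYB5A, cytochrome b5, can supply them too. These 2 and CYP4V2 were the 3 of 10 listed genes of P450 family 4 and omega-oxidation that were matched. POR had 2695 ± 333 in HG and 696 ± 107 in LG, and its log2 ratio was 1.95 (95% interval 1.40 to 2.51). CYB5A had 934 ± 107 and 329 ± 54.5, for a ratio of 1.5 (95% interval 0.93 to 2.07). Both were called as higher in HG, before and after centring, and the interval of CYP4V2, which ends at 0.14, does not reach either of theirs. The shared electron donors and this P450 therefore lay on different sides in these counts, while POR also serves other enzymes.

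Of 11 listed transporters of the ABCC family, 5 were matched, with a median log2 ratio of -0.46 where that of all loci tested was 0.26. ABCC5, a pump for cyclic nucleotides and other anions, had 1045 ± 148 in HG and 1436 ± 284 in LG, with a log2 ratio of -0.46 (95% interval -1.15 to 0.23), next to the -0.48 of ABCC3. CFTR, the chloride channel of the family, had 199 ± 31.6 and 381 ± 61.4, for a ratio of -0.93 (95% interval -1.57 to -0.29). CFTR was called in LG once centred, but not as deposited. ABCC8 and ABCC9, the sulfonylurea receptors that form part of potassium channels, had ratios of 0.67 (95% interval 0.05 to 1.29) and 0.54 (95% interval -0.16 to 1.24). The 2 pumps and CFTR were thus on the LG side and the 2 channel regulators on the HG side, in either scaling, although CFTR after centring was the only 1 of the 5 called. The 17 other listed transporters of bile acids and xenobiotics had no identifier in the rows read and were not analysed here.

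**Figure D4:**
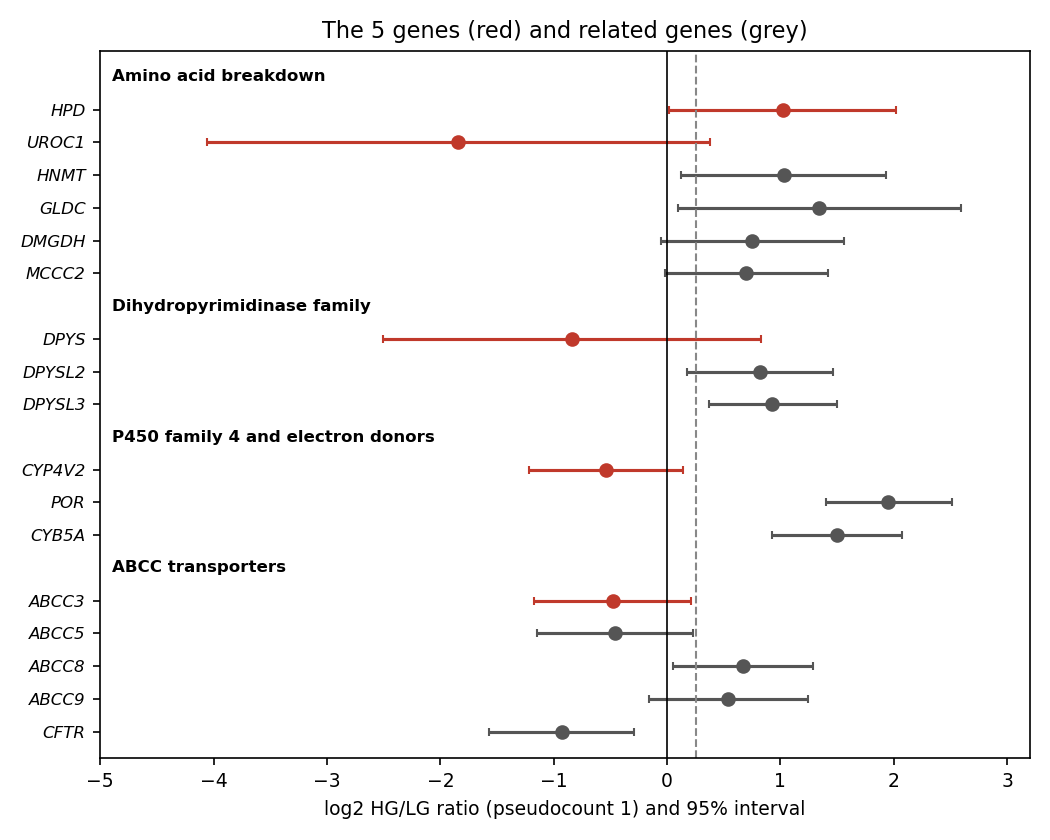
log2 HG/LG ratios with 95% intervals for the 5 genes (red) and the related genes matched to a row (grey), by group, with equal counts as a solid line and the median of the loci tested, 0.26, as a dashed line. POR at 1.95 and CYB5A at 1.5 lie to the right of CYP4V2 at -0.54 with no overlap of intervals, and ABCC3 at -0.48 lies beside ABCC5 at -0.46.

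Of 24 listed transcription factors and nuclear receptors of liver, 2 were matched. CEBPA and VDR had an identifier in the rows read but no row among the counts. The paper's pathway analysis names ABCC3 among the direct targets of VDR, with VDR and most of these targets higher in LG. That link was not tested here. CEBPB, a factor of liver and fat cells, had 99.7 in HG and 112 in LG (log2 ratio -0.17, 95% interval -1.03 to 0.69). ESR1, the estrogen receptor, had 57 and 26.7 (log2 ratio 1.06, 95% interval -0.16 to 2.29). Neither was called.

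Markers of other cells were read beside these counts. Of 26 hepatocyte markers, 1 was matched and the other 25 were not looked up, so their counts in either line are not given here. The paper's RNA-Seq results for the same birds name ALB, FGA, FGB, FGG, PLG, GC, AHSG, APOH and KNG1 of this marker list. They are among its genes with the largest excess in LG. The matched one was SERPINC1, the plasma antithrombin, with 4.40 ± 4.67 in HG and 64.7 ± 30.0 in LG, for a ratio of -3.61 on the log2 scale (95% interval -6.37 to -0.84), not called. This 1 marker was thus on the LG side with UROC1, DPYS, CYP4V2 and ABCC3, and opposite to HPD. The 15 markers of kidney tubule and 14 of enterocytes were not looked up for the same reason. Of 17 markers of epithelium and mesothelium, BNC1, with 19.8 in HG and 68.6 in LG, and WT1, with 49.9 and 96.1, were matched and were both higher in LG without being called. Of 15 adipocyte markers, 5 were matched, and of the 4 tested 3 were higher in HG and 1 in LG, with a median log2 ratio of 1.04. LPL, CEBPA and FASN had an identifier but no row among the counts, and the paper's RNA-Seq comparison gives them as higher in HG. PPARG, with 1774 in HG and 910 in LG, GPD1, with 5108 and 2103, and ACACA were called in HG as deposited and lost that call after centring. PNPLA2, with 5366 and 12188, was called in LG once centred only, and it alone put the summed counts of 13824 in HG and 15929 in LG on the LG side. Of 14 macrophage markers, 4 were matched and 3 of them were higher in LG, with a median log2 ratio of -0.42 and none called. CTSS, with 485 and 603, and SPI1, with 212 and 306, were among these 3, while CSF1R, with 2318 and 1401, put the summed counts of 3044 and 2355 on the HG side. CA2, the 1 of 14 erythrocyte markers matched, had 230 and 454 and was called in LG once centred. Of 14 skeletal muscle markers 5 were matched, summing to 1319 and 527, mainly ACTA1, ACTN2 and MYBPC1, and the 3 tested were higher in HG with none called. DGAT2 among the adipocyte and TNNC2 among the muscle markers are listed at 0 in both lines although the study counts both as differing genes, so a 0 in the table can be a failed estimate and is not read as absence. The part that other cell types take in the counts of the 5 genes was not tested.

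In RefSeq's annotation of the GRCg7b assembly, which is not the build of the counts, HPD lies between SETD1A and PSMD9 and DPYS between DCSTAMP and LRP12. CYP4V2 lies between FAM149A and KLKB1, the gene of the plasma prekallikrein, and ABCC3 between ANKRD40 and CACNA1G. None of these 4 overlaps another annotated gene there. UROC1 lies between ZXDC and CHCHD4 and overlaps 1 gene, NTN4L. The libraries were stranded, but whether the counting used the strand is not given in the sources used here, so the few UROC1 counts could include reads of that gene. Among the immediate neighbours that were matched, LRP12 had 565 in HG and 332 in LG, on the other side from DPYS, and CACNA1G had 25.3 and 12.3, on the other side from ABCC3. As deposited, 75.3% of all loci tested had the higher count in HG, and both neighbours come from the study's list, so nothing is read from their sides.

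Of the 1359 other tested genes with a symbol, those most like each of the 5 in both lines were found by the distance between log2(count + 1) values over the 2 lines. The nearest to HPD were MTSS1L (122 in HG and 63.2 in LG, distance 0.08) and GMPPA (116 and 63.1, distance 0.11). CYP4V2 was nearest to PWP1 (171 and 264, distance 0.06) and PARP12 (173 and 272, distance 0.08). For DPYS they were EGLN3, a prolyl hydroxylase of hypoxia-inducible factors (11.1 and 21.6, distance 0.05), and P2RY4, a nucleotide receptor (11.1 and 21.8, distance 0.07). ABCC3 had S1PR1, a sphingosine-1-phosphate receptor of endothelium (180.0 and 226, distance 0.11), and HELB (183 and 239, distance 0.11). UROC1 had no close match among the genes with a symbol, with FANCE (3.77 and 10.6) at 0.49 and B3GNT7 (4.08 and 13.3) at 0.62. Another 33 tested loci lay nearer to UROC1 than FANCE but had no symbol from the rows read. With 2 values per gene, this likeness is one of count level and ratio alone.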

How the data were processed

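The deposited table holds estimated counts per gene, 1 per line over 4 birds and 2 lanes each, with model variances in squared counts. Per the submitters' notes, the authors used CASAVA, TopHat 1.3.3, Bowtie 0.12.7 and Cuffdiff 2.0.2; the paper names Btrim64, Cufflinks and the Galgal4 genome. Counts were not divided by gene length, so levels are not compared between genes, and their scaling between lines is not stated. Symbols came from the study's list of differing genes (1998 rows read, 414 further rows not used here), with synonyms from RefSeq.

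The log of the count ratio over its delta-method standard error was compared with a standard normal (two-sided), with Benjamini-Hochberg adjustment over 10484 loci. This is model-based: with 1 value per line no test across birds is possible and no p is printed. It was tested on simulated data that came with their true variances, which cannot show whether the deposited variances are right for these birds. Estimated counts were rounded only for the binomial interval. The median relative SD was 20.2% in HG and 24.6% in LG. The alternatives were other scalings, count and fold minimums, variances, statuses, pseudocounts (0 and 10) and numbers of genes of like count. Genes named followed a written rule: the 5 genes, every matched list member where few were matched, the most counted markers per cell type, and the 2 genes nearest to each of the 5. LRP12, CACNA1G and marker genes named as listed at 0 fall outside it and were chosen with their values in view. The members and lists were chosen with earlier results of these data known. Calculations used Python 3.11.15, pandas 2.3.3, numpy 2.4.6, scipy 1.17.1 and matplotlib 3.10.9.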

Additional observations from a re-analysis of the deposited data

How the results depend on the processing

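As deposited, 307 loci were called, 217 higher in HG and 90 in LG. Centring on the median gave 104 in HG and 125 in LG, and equal column totals 73 and 163. With the variance divided by 4, 2841 were called, 2330 in HG and 511 in LG, and 4 of the 5 genes described were among them. None of the 5 was called under the 8 other settings, which were partly added after seeing the data; with a minimum count of 50, UROC1 and DPYS were not tested. Ratios of the 5 genes stayed within the 95% interval in all 20 alternatives. The scalings moved each log2 ratio by only 0.26 or 0.39 and the intervals are wide, so this outcome was nearly fixed beforehand. It says little about stability, and UROC1 ranged from -2.23 to -0.77. The place of the relative dispersion SD among genes of like count moved in 18 of 30 alternatives. In HG, UROC1 went from 63.2% to 56.0% with 1000 neighbours and to 73.5% with 200, and CYP4V2 in LG from 88.0% to 68.0% and 92.5%, and the 5 genes are therefore described by multiples of the local median. Leaving out single birds was not possible. No paired analysis was possible because the counts are 1 column per line and carry no replicate number.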
